A study of Mus musculus with 96 samples.

Results

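The genes described here are 10 glycolytic enzyme genes of the mouse, chosen by symbol as the rows Hk1, Hk2, Pfkl, Pfkp, Pfkm, Gapdh, Pgam1, Pkm2, Ldha and Ldhb of a table with 21711 gene rows. Pkm2 is the table's name for the gene now called Pkm. They were measured by single-cell tagged reverse transcription (STRT), which marks the cDNA of each well with a barcode and sequences transcripts from their 5′ ends, keeping the strand. The plate held 48 wells with single embryonic stem cells of the line R1 (ES cells), 44 wells with single mouse embryonic fibroblasts (MEFs, cells grown out of embryos) and 4 negative control wells. No genotype, treatment or age is given in the labels, ES cells and MEFs were grown in separate media, and the MEF medium was DMEM with serum. Wells with at least 10000 gene reads were kept, which left 45 ES cells and 44 MEFs.

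Glycolysis splits glucose into pyruvate, and lactate dehydrogenase can then turn pyruvate into lactate and back. Several steps can be run by enzymes from different genes, which differ in where they are expressed and how they are controlled. Hexokinase 1 (Hk1) is the widely expressed form that traps glucose in the cell, and hexokinase 2 (Hk2) is known from muscle, fat, embryonic and tumour cells. Phosphofructokinase, which commits the sugar to glycolysis, is a tetramer of liver-type (Pfkl), platelet-type (Pfkp) and muscle-type (Pfkm) subunits. Lactate dehydrogenase is a tetramer of A subunits (Ldha, the form of skeletal muscle) and B subunits (Ldhb, the form of heart). The question asked of these genes was which isoform each cell type used at each step.

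All 10 genes had an entry among the RefSeq promoter sequences (build GRCm38.p6), with 16 annotated starts between them, and the 250 bases before each start were searched. The motif was ACGTG on either strand, the letters shared by the hypoxia response element and by the E-box CACGTG. It was found before 6 of the 16 starts and in 5 of the 10 genes (Hk2, Pfkm, Pgam1, Pkm2 and Ldha), against 16.6% of 32851 windows of the same length and 18.5% of 27025 genes. CACGTG, which counts as a match on each strand, was found for 2 of the 10 genes (Ldha and Pfkm), against 6.86% of all genes and 6.02% of all windows. A gene with several annotated starts has more windows in which a match can fall. The windows of the isoform pairs Hk1 and Hk2, and Ldha and Ldhb, are shown 5′ to 3′ on the gene's strand, because these pairs differed most between the cell types below, with ACGTG on either strand in capitals. They lie at chr10:62340422-62340671 on the minus strand (Hk1), chr6:82774455-82774704 on the minus strand (Hk2), chr7:46845554-46845803 on the plus strand (Ldha) and chr6:142507958-142508207 on the minus strand (Ldhb).
Hk1: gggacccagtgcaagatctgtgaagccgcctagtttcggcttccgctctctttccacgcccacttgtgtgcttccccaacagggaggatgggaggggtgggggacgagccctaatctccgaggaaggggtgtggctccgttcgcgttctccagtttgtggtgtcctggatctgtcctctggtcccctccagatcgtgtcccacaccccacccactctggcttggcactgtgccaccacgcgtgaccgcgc
Hk2: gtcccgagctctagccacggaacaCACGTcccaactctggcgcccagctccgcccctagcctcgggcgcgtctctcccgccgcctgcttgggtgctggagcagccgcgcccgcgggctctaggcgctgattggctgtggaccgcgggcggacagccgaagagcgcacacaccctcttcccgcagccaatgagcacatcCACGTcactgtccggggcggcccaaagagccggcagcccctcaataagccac
Ldha: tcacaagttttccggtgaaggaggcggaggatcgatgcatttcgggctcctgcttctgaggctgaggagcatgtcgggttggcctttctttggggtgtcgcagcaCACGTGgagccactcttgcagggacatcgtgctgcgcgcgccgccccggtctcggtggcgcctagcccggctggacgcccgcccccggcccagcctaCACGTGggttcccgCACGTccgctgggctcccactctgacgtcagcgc
Ldhb: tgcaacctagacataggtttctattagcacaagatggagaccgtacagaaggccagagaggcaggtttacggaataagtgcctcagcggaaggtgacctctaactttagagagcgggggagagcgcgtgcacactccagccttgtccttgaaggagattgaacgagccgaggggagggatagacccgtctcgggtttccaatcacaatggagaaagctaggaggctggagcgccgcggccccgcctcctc
The Ldha window held 5 matches, 4 of them from its 2 CACGTG motifs, and the Hk2 window held 2. The Hk1 and Ldhb windows held none, nor did the windows of the other annotated starts of Hk1 and Ldha. The counts carry no read positions, so which start was used in these cells was not measured, and a match is only a match of letters.

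The plate was 1 library, and the labels name no separate cultures, so each cell type is treated as 1 culture and no p-value is given. Group levels are pooled read counts of all cells of a type, scaled to a common total of gene reads (counts-per-million, CPM), with exact 95% Poisson intervals. Log2 ratios are of ES cells over MEFs. The spread is given as the SD over the 8 plate rows, each of which holds different cells of both types, so it is a spread within 1 plate. ES cells filled plate columns 1 to 6 and MEFs the other side, so plate side and cell type cannot be told apart. The labels also give R1 as the source line of the MEF wells, which conflicts with their cell type label.

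Gene reads per kept well had a median of 161206 in ES cells (13576 to 703423), 851801 in MEFs (63938 to 1883709) and 3814.5 in negative controls (236 to 4662). The median ratio of gene reads to spike-in reads was 6.62 in ES cells, 152 in MEFs and 0.126 in negative controls. The median share of ribosomal protein genes was 46.2% in ES cells and 14.2% in MEFs. ES cell markers were higher in ES cells by log2 7.05 to 8.79 (Pou5f1, Sox2, Zfp42, Dppa5a and Tdh), and MEF markers were lower in ES cells by log2 3.30 to 4.71 (Fn1, Col1a1, Col1a2, Vim and Thy1). Summed over its 5 genes, the ES cell list had a median of 6273 CPM in ES cells (221 to 20126) and 21.7 CPM in MEFs (0 to 184). The MEF list had a median of 1076 CPM in ES cells (172 to 23558) and 21618 CPM in MEFs (5825 to 64128). ES cell replicates 4, 7, 8 and 30 lay nearer the mean profile of the MEFs than that of the ES cells, and without them no log2 ratio of the 10 genes moved by more than 0.050. Replicates 7, 8 and 30 had 23428, 13576 and 18186 gene reads, fewer than their 60161, 34935 and 51362 spike-in reads. Replicate 4 had 55056 gene reads and 7615 spike-in reads.

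On the CPM scale, 4 of the 10 had at least 2-fold higher levels in ES cells (Gapdh, Ldhb, Pfkp and Hk2), 4 in MEFs (Hk1, Pgam1, Pfkm and Pkm2), and Ldha and Pfkl were neither. Among the 12818 genes with at least 20 reads, 15.4% passed that limit towards ES cells and 58.5% towards MEFs. All 10 also passed a stricter minimum of 100 reads, at which 13.3% of genes passed the limit towards ES cells and 59.1% towards MEFs. The median log2 ratio of the 10 genes was -0.46, against -1.48 for those 12818 genes. The scale mattered for direction, because the median of the genes with at least 100 reads lay at -1.54 (SD 0.39 over plate rows). Relative to that median gene, 6 of the 10 passed the limit towards ES cells and 1 (Hk1) towards MEFs, as 33.8% and 32.5% of measured genes did. Per spike-in read, 9 passed the limit towards MEFs and none towards ES cells, since the whole scale then shifts by -4.56. This shift applies to every gene. The share of all measured genes passing on that scale was not taken, so these counts do not set the 10 genes apart. The 4 genes that were higher in ES cells in CPM turned on that scale, to log2 ratios of -0.50 (Gapdh), -1.24 (Ldhb), -2.51 (Pfkp) and -2.84 (Hk2). Shares of isoforms within a step do not depend on any of these scales.

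**Figure D1:**
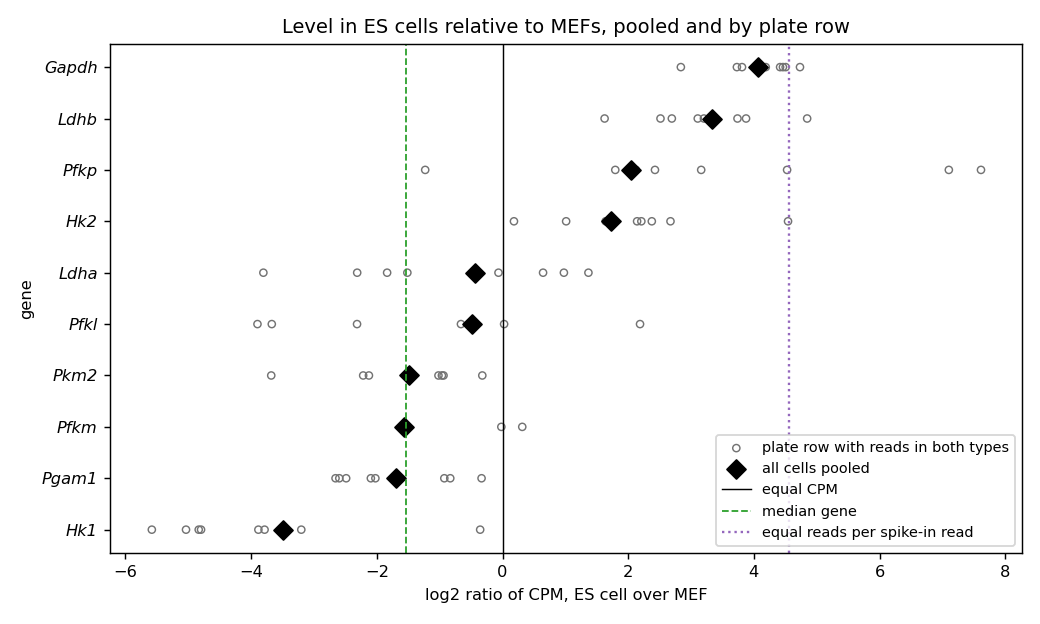
Log2 ratio of CPM, ES cell over MEF (x axis), for the 10 genes (y axis); diamonds are all cells pooled, circles are plate rows with reads in both types, and vertical lines mark equal CPM, the median gene (-1.54) and equal reads per spike-in read. Gapdh and Ldhb lie farthest to the right at 4.06 and 3.33, Hk1 lies farthest to the left at -3.50, and every pooled value lies left of the spike-in line.

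Hexokinase, the first step, had opposite leading genes in the cell types. Hk1 (chr10:62268855-62379908, minus strand) had 28.8 CPM in ES cells (25.3 to 32.6) and 326 CPM in MEFs (320 to 332), which was 11.3-fold higher in MEFs (log2 ratio -3.50, SD 1.64 over 8 rows). Over single cells its lowest, median and highest values were 0, 0 and 228 CPM in ES cells and 0, 173 and 1732 CPM in MEFs. The cell ranges overlapped, but 18 of 44 MEFs lay above the highest ES cell, and pooled Hk1 was higher in MEFs in 8 of 8 plate rows, as 17.8% of measured genes were. Hk2 (chr6:82725025-82774454, minus strand) ran the other way, with 305 CPM in ES cells (293 to 316) and 92.3 CPM in MEFs (89.2 to 95.6), a log2 ratio of 1.72 (SD 1.28). Single cells spanned 0 to 1769 CPM with a median of 183 in ES cells, and 0 to 534 CPM with a median of 27 in MEFs. The Hk2 ranges overlapped more than those of Hk1, with 8 of 45 ES cells above the highest MEF, while pooled Hk2 was higher in ES cells in 8 of 8 rows, as 1.66% of measured genes were.

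As a share of the reads of Hk1 and Hk2 together, Hk1 made up 8.63% in ES cells (exact 95% binomial interval 7.64 to 9.71) and 77.9% in MEFs (77.2 to 78.6). The interval covers counting error only, since no molecular identifiers are mentioned and reads of 1 molecule are not independent. By plate row the Hk1 share was 1.31% to 21.9% in ES cells and 33% to 93% in MEFs, and the ranges did not overlap. ES cells minus MEFs, the difference was -69.3 percentage points, with an SD over rows of 17.5. Divided by transcript length, the Hk1 share was 10.4% in ES cells and 81.2% in MEFs, so the order of the genes did not depend on length. Hk2 led in 8 of 8 rows of ES cells, and Hk1 led in 7 of 8 rows of MEFs, the exception being row H with an Hk1 share of 33%. At a fixed depth of 20000 gene reads per cell (42 ES cells and 44 MEFs), reads of Hk1 were found in 7 of 42 ES cells and in 28 of 44 MEFs, and reads of Hk2 in 27 of 42 ES cells and 22 of 44 MEFs. Without thinning, reads of Hk1 were found in 16 of 45 ES cells and in 37 of 44 MEFs, and Hk2 in 32 of 45 ES cells and 33 of 44 MEFs.

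Fibroblast transcripts were also found in the wells of the ES cells, beside the low reads of Hk1. Of the 42 thinned ES cells, 7 had a read of Hk1, beside 6 for Thy1, 21 for Col1a1, 33 for Col1a2, 37 for Vim and 40 for Fn1, the 5 fibroblast markers. In the other direction, of the 44 thinned MEFs, 1 had a read of Pou5f1, 3 of Sox2, 2 of Zfp42, 16 of Dppa5a and 2 of Tdh, the 5 ES cell markers. The log2 ratio of Hk1 (-3.50) lay within the range of the 5 MEF markers (-4.71 to -3.30). The negative control wells held few gene reads, with a median over wells of 18822 CPM for the summed MEF markers and 5771 CPM for the summed ES cell markers. Hk1 had 5 reads there, all in 1 well. Whether the Hk1 reads in ES cell wells came from the ES cells or from RNA carried over between wells was not tested. ES cell replicate 38 alone gave 25.5% of the Hk1 reads of ES cells, and without it the Hk1 share was 6.58%. Hk3, a further hexokinase gene, had 0 reads in ES cells and 9 in MEFs. Hkdc1, a related gene, had 2 reads in 1 ES cell and 67 reads in 1 MEF.

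**Figure D2:**
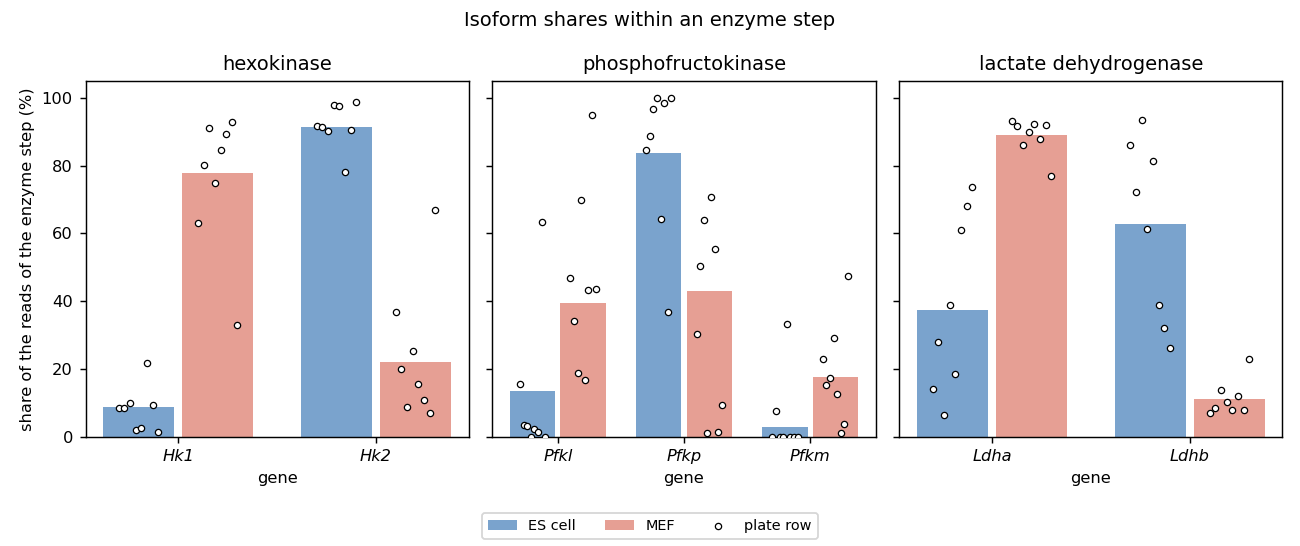
Share of the reads of hexokinase, phosphofructokinase and lactate dehydrogenase (y axis, percent) taken by each isoform gene (x axis) in pooled ES cells and MEFs (bars), with plate rows as points. Hk2 takes 91.4% in ES cells and 22.1% in MEFs, and Ldhb takes 62.7% in ES cells, with rows spread between 26.2% and 93.6%, and 11.1% in MEFs.

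Phosphofructokinase transcripts were few, and their isoforms separated the cell types less clearly. Pfkp (chr13:6579768-6648777, minus strand) had 134 CPM in ES cells (127 to 142) and 32.4 CPM in MEFs (30.6 to 34.4), a log2 ratio of 2.05 (SD 2.91), and was higher in ES cells in 7 of 8 rows. Its cell values ran from 0 to 1623 CPM in ES cells and 0 to 304 CPM in MEFs, with a median of 0 in both, and the ranges overlapped. Pfkl (chr10:77986947-78010083, minus strand) had 21.3 CPM in ES cells (18.4 to 24.6) and 29.8 CPM in MEFs (28.1 to 31.7), a log2 ratio of -0.48 that lay within its SD of 2.35 over 6 rows with reads in both types. Its sign was not stable, with 0.23 after thinning, 0.16 without ribosomal protein genes in the totals, 0.09 in plate rows E to H and 1.06 relative to the median gene. ES cell replicate 47 gave 37.1% of the Pfkl reads of ES cells, and without it the gene was 2.07-fold higher in MEFs, against 1.40-fold with it. Pfkm (chr15:98092589-98132451, plus strand) was the lowest of the 10 genes in both types, at 4.47 CPM in ES cells (3.18 to 6.11) and 13.2 CPM in MEFs (12.1 to 14.5). Its reads were found in 3 of 45 ES cells and in 17 of 44 MEFs as deposited, and in 3 of 42 ES cells and 8 of 44 MEFs at 20000 reads per cell. The log2 ratio of -1.56 depended on the processing. Of its 39 ES cell reads, 28 came from replicate 5, and without that cell it was 10.3-fold higher in MEFs, against 2.96-fold with it. It did not reach 2-fold when thinned (-0.52), as a mean over cells (-0.96), with 10 CPM added (-0.68), without ribosomal protein genes in the totals (-0.92), in plate rows E to H (-0.79) or relative to the median gene (-0.02), so the size of the Pfkm difference is not settled at this depth.

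Within the step, Pfkp made up 83.9% of phosphofructokinase reads in ES cells (81.8 to 85.8) and 43% in MEFs (41.1 to 44.9). Pfkl made up 13.3% in ES cells and 39.5% in MEFs, and Pfkm 2.80% in ES cells and 17.5% in MEFs. Divided by transcript length the Pfkp share was 82.4% in ES cells and 39.7% in MEFs, beside 39.2% for Pfkl in MEFs. By row the Pfkp share was 36.7% to 100% in ES cells and 1.16% to 70.8% in MEFs, so the rows overlapped, and its difference of 40.9 percentage points compares with an SD over rows of 33.6. No single isoform led the step in MEFs, where Pfkp led in 4 rows, Pfkl in 3 and Pfkm in 1, and without MEF replicate 69 the Pfkp share was 33.2%, below the 46.3% of Pfkl. Pfkl also led as a mean over cells (44.4%, with Pfkp at 31.6%) and in plate rows A to D (45.4%, with Pfkp at 32.9%). At deposited depth, 8 of 44 MEFs had reads of both genes, 10 of Pfkp alone and 14 of Pfkl alone.

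Gapdh, the glyceraldehyde phosphate dehydrogenase that makes the first NADH of the pathway and is widely used as a reference gene, differed most of the 10 in CPM, although not per spike-in read. Gapdh (chr6:125161715-125166467, minus strand) had 2059 CPM in ES cells (2029 to 2090) and 123 CPM in MEFs (119 to 127), which was 16.7-fold higher in ES cells (log2 ratio 4.06, SD 0.61). Single cells had a lowest, median and highest value of 0, 1171 and 5765 CPM in ES cells, and of 0, 95.5 and 475 CPM in MEFs. Of 45 ES cells, 36 lay above the highest MEF, and no MEF lay above the median ES cell. Plate rows ran from 1102 to 3026 CPM in ES cells and 78.5 to 255 CPM in MEFs, with no overlap. Of all reads on the 11 steps of the pathway, Gapdh took 36% in ES cells (rows 26.6 to 40.7) and 2.62% in MEFs (rows 1.62 to 5.13), and divided by transcript length 46.4% in ES cells and 4.2% in MEFs. Gapdhs, its sperm-specific paralog, had 0 reads in both types.

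Gapdh has many near-identical processed pseudogenes in the mouse, and reads that match several places can be lost or shared between them. All 22287 Gapdh reads counted on the plate were also in the authors' column of unique reads (100%), so the deposited count holds no reads with alternative mappings. How many reads were dropped for matching too many places is not known from the table. In ES cells the Gapdh level went with depth, with a Pearson r of 0.61 and Spearman rho of 0.43 between log Gapdh and log gene reads over 45 cells, a description over cells that share 1 library; in MEFs r was 0.18. The share of ribosomal protein reads also moved between the types, and with those genes left out of the totals the Gapdh log2 ratio was 4.71. The part of depth and of the read total in the Gapdh difference was not tested.

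**Figure D3:**
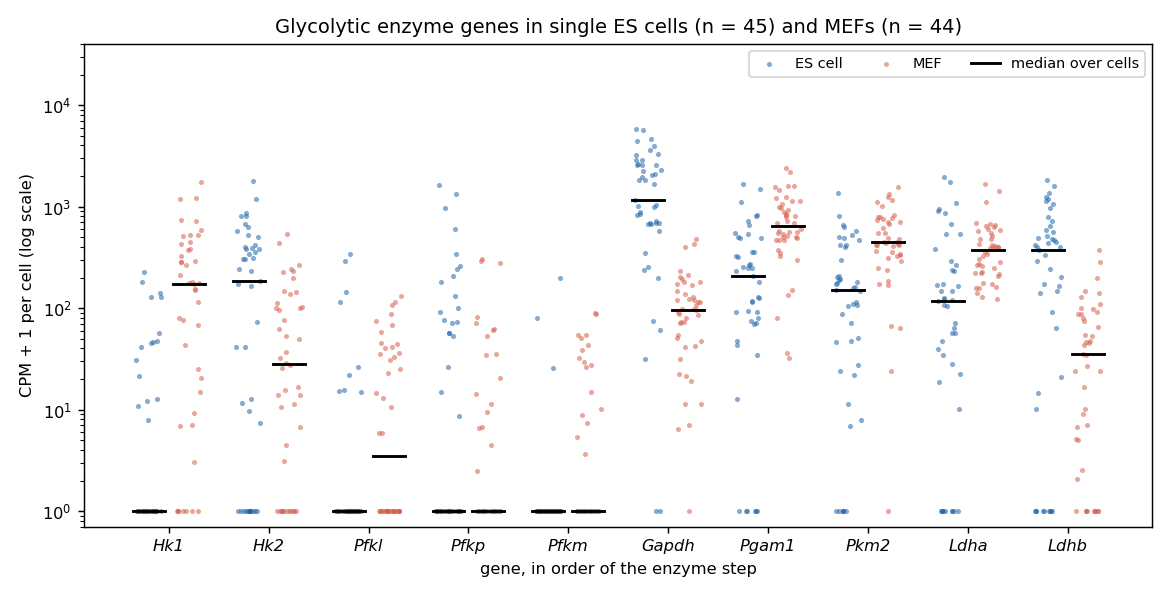
CPM plus 1 in each cell (y axis, log scale) for the 10 genes in the order of their steps (x axis), with ES cells left of MEFs for each gene and a bar at the median; points at 1 are cells with no read. Gapdh has medians of 1171 CPM in ES cells and 95.5 CPM in MEFs, and Pfkm has a median of 0 in both.

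Pgam1 and Pkm2, which act after Gapdh in the pathway, were higher in MEFs on the CPM scale and close to the median gene. Pgam1 (chr19:41911923-41918660, plus strand), the phosphoglycerate mutase of most tissues, had 239 CPM in ES cells (229 to 250) and 778 CPM in MEFs (769 to 787), a log2 ratio of -1.70 (SD 0.91), higher in MEFs in 8 of 8 rows. Its cells spanned 0 to 1650 CPM with a median of 204 in ES cells, and 31.3 to 2392 CPM with a median of 643 in MEFs. Pkm2 (chr9:59656368-59679375, plus strand), the gene of pyruvate kinase M, had 201 CPM in ES cells (192 to 211) and 565 CPM in MEFs (557 to 573), a log2 ratio of -1.49 (SD 1.06), also higher in MEFs in 8 of 8 rows. Its cells spanned 0 to 1359 CPM with a median of 151 in ES cells, and 0 to 1573 CPM with a median of 442 in MEFs. Both ranges overlapped widely. Relative to the median gene the log2 ratios were -0.16 for Pgam1 and 0.05 for Pkm2, so that the direction of Pkm2 turned. The M1 and M2 proteins come from splicing of 1 gene far from its 5′ end, and these counts do not separate them. The muscle form Pgam2 and the liver and red cell form Pklr had 0 reads in both types.

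Lactate dehydrogenase also changed its leading gene between the cell types, through Ldhb more than through Ldha. Ldhb (chr6:142490249-142507957, minus strand) had 528 CPM in ES cells (513 to 544) and 52.7 CPM in MEFs (50.3 to 55.2), which was 10.0-fold higher in ES cells (log2 ratio 3.33, SD 0.98), with 8 of 8 rows higher in ES cells. Single cells had a lowest, median and highest value of 0, 368 and 1829 CPM in ES cells and of 0, 33.9 and 372 CPM in MEFs. Of 45 ES cells, 22 lay above the highest MEF, and 1 of 44 MEFs lay above the median ES cell. Ldha (chr7:46841475-46855627, plus strand) had 314 CPM in ES cells (302 to 326) and 424 CPM in MEFs (417 to 431), and its log2 ratio of -0.43 lay within its SD of 1.83. It was 0.58 in plate rows E to H, 0.21 without ribosomal protein genes in the totals and 1.11 relative to the median gene. Its cells spanned 0 to 1935 CPM with a median of 118 in ES cells and 121 to 1681 CPM with a median of 372 in MEFs, where every cell had a read. Ldha was higher in ES cells in 3 of 8 rows, and 99.6% of its reads were unique. Ldhc, the testis form, had 24 reads, all in 1 ES cell, and 0 in MEFs.

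Ldhb made up 62.7% of the reads of Ldha and Ldhb in ES cells (61.6 to 63.8) and 11.1% in MEFs (10.6 to 11.5). Divided by transcript length the share was 71.6% in ES cells and 15.7% in MEFs. The row ranges were 26.2% to 93.6% in ES cells and 6.95% to 22.9% in MEFs and did not overlap, and the difference of 51.7 percentage points compares with an SD over rows of 28.9. Within the ES cells the leading gene depended on the row. The Ldhb share was 82.8% in rows A to D together and 40.5% in rows E to H, and by row it was 86%, 72.2%, 93.6%, 61.3%, 81.4%, 38.9%, 31.9% and 26.2%. Ldha had 678, 605 and 740 CPM in ES cells of rows F, G and H, against 51.8 to 357 CPM in rows A to E. ES cell replicate 47 gave 24.3% of the Ldha reads of ES cells, and without it the pooled Ldhb share was 67.9%. In MEFs, Ldha led in 8 of 8 rows.

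**Figure D4:**
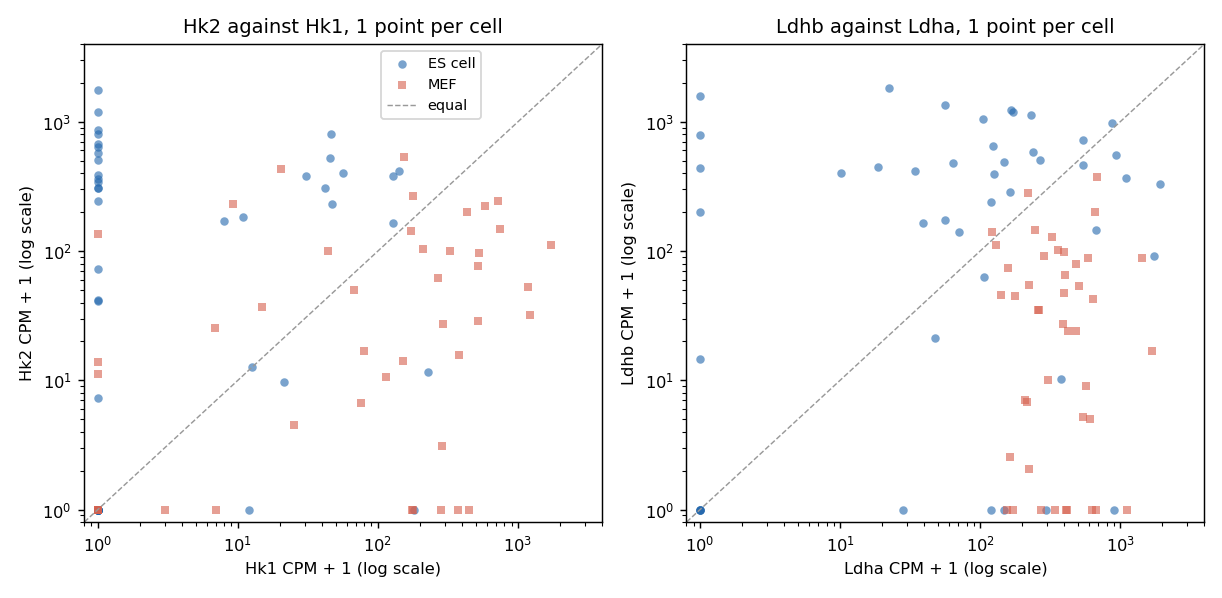
CPM plus 1 per cell on log scales, with Hk2 (y axis) against Hk1 (x axis) on the left and Ldhb (y axis) against Ldha (x axis) on the right; circles are ES cells, squares are MEFs, and the dashed line marks equal values. In cells with at least 10 reads of the pair, Hk2 led in 25 of 27 ES cells and in 9 of 36 MEFs, and Ldhb led in 26 of 39 ES cells and 2 of 44 MEFs.

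Single cells were counted where a pair had at least 10 reads. Hk2 held more than Hk1 in 25 of 27 such ES cells and in 9 of 36 MEFs, and 14 of the 27 ES cells had no read of Hk1. Ldhb held more than Ldha in 26 of 39 ES cells and in 2 of 44 MEFs. Pfkp held more than the other subunits together in 14 of 17 ES cells and in 10 of 32 MEFs. Both isoforms of a pair were found together in some cells. At 20000 reads per cell, reads of both Hk1 and Hk2 were found in 5 of 42 ES cells and in 17 of 44 MEFs, and both Ldha and Ldhb in 23 of 42 ES cells and 20 of 44 MEFs.

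Across cells the 10 genes hardly followed one another. Among the 45 gene pairs, Pearson r of log values lay between -0.36 and 0.47 over 45 ES cells and between -0.29 and 0.43 over 44 MEFs, and none reached 0.5 in size. These are descriptions of cells from 1 library, in which depth is shared and counts are sparse. Likeness to other genes was ranked by Pearson r, and Spearman rho is given beside it, which was well below r for some genes. Among 1203 genes detected in at least 50% of ES cells, those most like Gapdh in ES cells were Rpl9 (r 0.71, rho 0.35), Rps24 (r 0.68, rho 0.47) and Btf3 (r 0.64, rho 0.64), and those most like Hk2 were Gm6788 (r 0.56, rho 0.49), Uqcr11 (r 0.54, rho 0.48) and Eif1ax (r 0.53, rho 0.48). Among 5303 genes so detected in MEFs, those most like Pgam1 were Vps35 (r 0.65, rho 0.40), Msn (r 0.62, rho 0.26) and Sept7 (r 0.61, rho 0.30), and those most like Hk1 were Ankfy1 (r 0.60, rho 0.62), Luzp1 (r 0.58, rho 0.53) and Wsb1 (r 0.57, rho 0.55).

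Divided by transcript length, Gapdh was first in ES cells at 1671 CPM per kilobase, followed by Ldhb at 410, Ldha at 163, Pgam1 at 131, Pkm2 at 91.8, Hk2 at 55.3, Pfkp at 33.7, Hk1 at 6.38, Pfkl at 5.74 and Pfkm at 1.47. In MEFs, Pgam1 was first at 425 CPM per kilobase, followed by Pkm2 at 258, Ldha at 220, Gapdh at 99.9, Hk1 at 72.3, Ldhb at 40.9, Hk2 at 16.8, Pfkp at 8.14, Pfkl at 8.03 and Pfkm at 4.33. STRT counts 5′ ends, so a division by length may lower long transcripts such as Hk1 and Hk2. Of the 9 neighbouring pairs in each order, the levels differed by more than the SD over rows of their difference for Gapdh over Ldhb and Pfkp over Hk1 in ES cells and for Ldha over Gapdh in MEFs, and the other neighbours did not. The 10 genes together had a share of 0.384% in ES cells and 0.244% in MEFs among all gene reads.

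Seen by step, the summed CPM was higher in ES cells for glyceraldehyde phosphate dehydrogenase (log2 ratio 4.06), phosphofructokinase (1.08, SD 1.19), lactate dehydrogenase (0.83, SD 0.76) and enolase (0.68, SD 0.58). It was lower in ES cells at the other 7 steps, by log2 0.33 for hexokinase (SD 0.88) to 1.70 for phosphoglycerate mutase (SD 0.91). Of these 7, only phosphoglycerate mutase and pyruvate kinase (log2 ratio -1.49, SD 1.06) differed by more than their SD over rows. On this scale the median gene lay at -1.54, and only phosphoglycerate mutase lay below it. Hexokinase thus had 334 CPM in ES cells and 420 CPM in MEFs in all, and its total differed by less than the SD over rows while its leading gene differed. Lactate dehydrogenase had 845 CPM in ES cells and 477 CPM in MEFs. The step sums at aldolase (Aldoa, 584 CPM in ES cells and 1033 CPM in MEFs) and enolase (Eno1, 760 CPM in ES cells and 445 CPM in MEFs) rested on 1 main gene each, and 22.7% of Eno1 reads were unique.

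**Figure D5:**
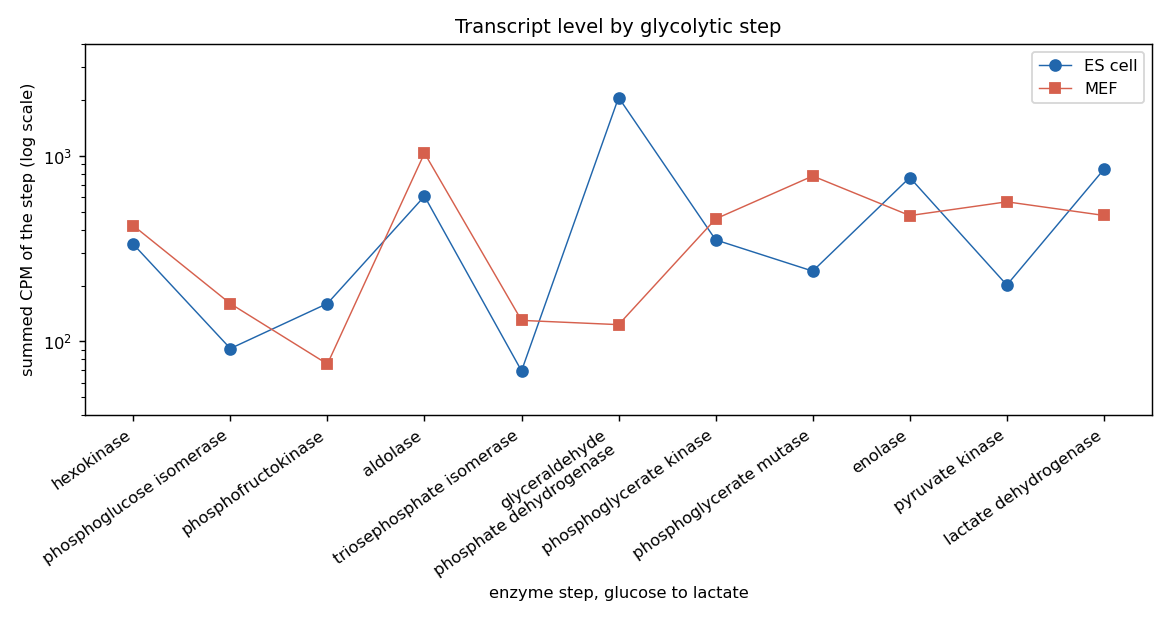
CPM summed over the genes of each of the 11 enzyme steps (y axis, log scale), in order along the pathway (x axis); circles are pooled ES cells and squares pooled MEFs, and lines only join points of 1 type. The widest gap is at glyceraldehyde phosphate dehydrogenase, with 2059 CPM in ES cells and 123 CPM in MEFs.

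Of 45 further genes of glucose uptake, glycolysis and pyruvate use, 37 had at least 20 reads, of which 8 passed the 2-fold limit towards ES cells and 17 towards MEFs. The other 12 did not, and the median log2 ratio was -0.90. Among all 12818 measured genes, 15.4% passed towards ES cells and 58.5% towards MEFs, with a median of -1.48. These counts are in CPM. Relative to the median gene, 13 of the 37 passed towards ES cells and 11 towards MEFs, beside 33.8% and 32.5% of all measured genes. Slc2a3, the high-affinity glucose transporter GLUT3, had 186 CPM in ES cells and 4.72 CPM in MEFs (log2 ratio 5.30), with 8 of 8 rows higher in ES cells. Pdk1, a kinase that switches off pyruvate dehydrogenase, had 75.1 CPM in ES cells and 5.43 CPM in MEFs (log2 ratio 3.79, 6 of 8 rows higher in ES cells). Pdhb, a subunit of pyruvate dehydrogenase itself, had 295 CPM in ES cells and 58.1 CPM in MEFs (log2 ratio 2.35, SD 1.89, 5 of 8 rows). Per spike-in read, the log2 ratio was 0.74 for Slc2a3 and turned for Pdk1 (-0.77) and Pdhb (-2.22).

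Higher in MEFs in CPM were Bsg, Hif1a and Pdk3. Bsg, basigin, the partner that carries lactate transporters to the membrane, had 80.7 CPM in ES cells and 600 CPM in MEFs (log2 ratio -2.89, SD 0.73). Hif1a, the oxygen-regulated transcription factor of glycolytic genes, had 31.3 CPM in ES cells and 153 CPM in MEFs (log2 ratio -2.29, SD 1.99). Pdk3, a further kinase of pyruvate dehydrogenase, had 2.75 CPM in ES cells and 40.2 CPM in MEFs (log2 ratio -3.87, SD 3.62 over 3 rows). Bsg and Hif1a were higher in MEFs in 8 of 8 rows, as 17.8% of measured genes were, and Pdk3 in 7. Relative to the median gene, the log2 ratios were -1.35 for Bsg, -0.75 for Hif1a and -2.33 for Pdk3. On that scale Hif1a did not reach 2-fold.

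In the 4 negative control wells the 10 genes had 19, 14, 20 and 0 reads, 53 in all of 12527 gene reads. That was 0.423%, beside 0.384% in ES cells and 0.244% in MEFs. Reads in these wells came from 7 of the 10 genes, led by Pgam1 with 14 and Ldha with 13, each in a single well, and Gapdh had 1. The deposited reads of the kept cells were 33444 for the 10 genes in ES cells and 85642 in MEFs.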

How the data were processed

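The 10 genes, the 45 further pathway genes and the marker lists were chosen with earlier results of these data known. The deposited table held raw read counts per transcript in each of 96 wells, with 1217 repeat rows and 8 spike-in rows totalled apart. Per the file headers, barcodes, added Gs and trailing As were removed and each count is the maximum of exon hits, multiply mapped reads included, with a separate column of unique reads over the plate. Bowtie was named in the submitters' processing notes, while its version and the genome build are not given in the sources used here, so gene positions come from GENCODE M21 and promoters from RefSeq, both GRCm38.

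Counts were summed over cells with at least 10000 gene reads and scaled to CPM, since the labels name no separate cultures and cells are not replicates. This left out ES cell replicates 32, 44 and 46, and no doublet caller was run because each well was labelled as 1 cell. Sums of 0 were replaced by 3 reads to give a bound. Intervals are exact Poisson (CPM) and Clopper-Pearson (shares) at 95% and cover counting error only. Shares of cells with a read were also taken after thinning each cell to 20000 gene reads, which left out 3 ES cells. Correlations between genes used log2 of CPM plus 10. Row SDs used plate rows with reads in both types. The text names the 10 genes, every listed gene of their enzyme steps (1 is not reported here), the 6 further genes with the largest log2 ratio after adding 10 CPM, and the 3 genes most like the leading gene and the leading hexokinase of each type. Alternatives were other scalings, depth minimums, the upper and lower plate rows apart, wells left out and reads of negative controls subtracted. The code was tested on simulated counts. Python 3.11.15, NumPy 2.4.6, SciPy 1.17.1, pandas 2.3.3 and matplotlib 3.10.9 were used.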

Additional observations from a re-analysis of the deposited data

Results flagged for a closer look

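In the 4 negative control wells, 7 of the 10 genes had all their reads in 1 well and 0 in the other 3, so that for each gene 1 well stood apart, not the same well for every gene. The reads in the well concerned were 5 for Hk1, 6 for Pfkp, 1 for Gapdh, 14 for Pgam1, 5 for Pkm2, 13 for Ldha and 9 for Ldhb. Chance flags about 1 in 20 groups by this rule, and with counts this low a single well with any read meets it. Subtracting the negative control reads left the log2 ratio of Hk1 at -3.84, of Gapdh at 4.08 and of Ldhb at 3.39.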

How the results depend on the processing

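Of the main counts and shares, 96 values under other settings stayed within 1.5 times (counts) or within 1 SD over plate rows (shares) and 4 moved, all of them counts of genes. The SD over rows is wide, and within it the leading gene changed for the Ldhb share in ES cells (40.5% in rows E to H) and for the Pfkp share in MEFs (31.6% as a mean over cells and 32.9% in rows A to D, below Pfkl). Genes at least 2-fold higher in MEFs numbered 1 relative to the median gene, 9 per spike-in read and 2 with ribosomal protein genes left out of the totals, against 4 in CPM, and genes at least 2-fold higher in ES cells numbered 0 per spike-in read. Genes at least 2-fold higher in MEFs numbered 3 when thinned, as a mean over cells, with 10 CPM added and in rows E to H, where Pfkm was at -0.52, -0.96, -0.68 and -0.79, and 6 in rows A to D. Shares of all measured genes past the limit were taken only in CPM and relative to the median gene. Under the other settings a shift of all genes was therefore not separated from a change in these genes. Among genes past 2-fold in CPM, directions turned for Pkm2 relative to the median gene (0.051) and, per spike-in read, for Hk2 (-2.84), Pfkp (-2.51), Gapdh (-0.50) and Ldhb (-1.24), which follows from the shift of the scale. Pfkl and Ldha, not past 2-fold in CPM, turned to 1.06 and 1.11 relative to the median gene, 0.16 and 0.21 without ribosomal protein genes and 0.09 and 0.58 in rows E to H, and Pfkl to 0.23 when thinned. With each cell left out in turn, an alternative chosen after seeing the data, the Hk1 share of hexokinase reads was 6.58% to 9.45% in ES cells and 76.2% to 80.5% in MEFs, and the Ldhb share of lactate dehydrogenase reads was 58.8% to 67.9% in ES cells and 10.1% to 12% in MEFs. The log2 ratio of Pfkm was -3.37 without ES cell replicate 5, against -1.56 with it. Leaving out the 4 ES cells nearer the MEF profile was also chosen after seeing the data. No paired analysis was possible because the replicate numbers run on across the cell types and none is shared. With 1 culture per type, the spread between cultures is unknown, and genes with a few reads per cell, such as Pfkm, are limited by depth.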

Other observations

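Isoforms also differed between the cell types on either side of glycolysis, in families chosen after their values were seen. At glucose entry, Slc2a3 (the transporter GLUT3) made up 82.6% of the reads of Slc2a1 and Slc2a3 in ES cells (80.8 to 84.2, rows 52% to 100%) and 7.26% in MEFs (6.23 to 8.40, rows 0% to 27.5%), and the row ranges did not overlap. Slc2a1, the widely expressed transporter GLUT1, had 39.3 CPM in ES cells and 60.3 CPM in MEFs, with a log2 ratio of -0.62 that lay within its SD of 2.28 over rows. The transporter genes Slc2a8 and Slc2a4 were left out of this share. They had 33 and 13 reads in ES cells and 430 and 118 in MEFs, where Slc2a3 had 166. Among the kinases that switch off pyruvate dehydrogenase, Pdk1 made up 95.6% of the reads of Pdk1 to Pdk4 in ES cells (93.8 to 97.0) and 8.20% in MEFs (7.12 to 9.39). Pdk3 made up 3.50% in ES cells and 60.8% in MEFs. These kinases had few reads (ES cells 685, MEFs 2328), and the Pdk1 share by row was 0% to 100% in ES cells and 0% to 30.3% in MEFs, so that the rows overlapped. Divided by transcript length, the Slc2a3 share was 75.5% in ES cells and 4.84% in MEFs, and the Pdk1 share was 89.7% in ES cells and 3.61% in MEFs. The enolases, taken in the same way, had the same leading gene in both types. Eno1 made up 99.5% of their reads in ES cells (rows 98.2% to 100%) and 93.4% in MEFs (rows 69.1% to 100%).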
